A study of Mus musculus with 6 samples.

Results

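The 10 genes that link the endothelium of the liver to the iron hormone of the hepatocyte were followed in a knockout study of mouse steatohepatitis. They were taken by symbol from the deposited expression table, where all 10 were found among 21956 genes. They comprise the bone morphogenetic protein (BMP) ligands Bmp2 and Bmp6, the BMP-responsive genes Hamp, Hamp2, Id1 and Smad6, the iron sensors Hjv and Tfr2, and the iron carriers Tfrc and Slc40a1. The knockout group was 3 mice of genotype Stingfl/fl Cdh5-Cre+, in which floxed alleles of the innate immune adaptor Sting1 meet a Cre recombinase under the endothelial Cdh5 promoter. The control group was 3 Stingfl/fl Cdh5-Cre- littermates that carry the same floxed alleles without Cre. Every mouse ate normal chow to 8 weeks of age and then CDAHFD, a high-fat diet that lacks choline and is defined in its amino acids, for 10 weeks. The labels used here state neither sex nor age at collection. Since no control mouse carried Cre, the recombinase and the loss of Sting1 cannot be told apart.

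Hepcidin, the product of Hamp, is secreted by hepatocytes and lowers plasma iron by binding ferroportin, the iron exporter encoded by Slc40a1, which is then internalised and degraded. Its transcription is driven by BMP6 and BMP2, which liver sinusoidal endothelial cells secrete and which act on hepatocyte BMP receptors together with the coreceptor hemojuvelin (Hjv). Transferrin receptor 2 (Tfr2) senses iron-loaded transferrin on the same cells, and the receptors phosphorylate SMAD proteins that turn on Hamp, Id1 and the inhibitory SMAD genes Smad6 and Smad7. Interleukin 6 raises Hamp by a separate route through STAT3.

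The sequences through which this circuit reads its genes come first. Shown to begin with are the 250 bases upstream of the transcription start of the mouse hepcidin paralogs, from RefSeq (GRCm38.p6, both on the minus strand), shown because the paralogs differ in the BMP-responsive letters. In capitals are GGCGCC, the core of the BMP response element, and TTCNNNGAA, the STAT core, each searched on both strands. CAGACA, GTCTAGAC and TATAAA were searched as well, and of these only CAGACA was found, once in each window on the opposite strand.
Hamp, chr7:30944030-30944279: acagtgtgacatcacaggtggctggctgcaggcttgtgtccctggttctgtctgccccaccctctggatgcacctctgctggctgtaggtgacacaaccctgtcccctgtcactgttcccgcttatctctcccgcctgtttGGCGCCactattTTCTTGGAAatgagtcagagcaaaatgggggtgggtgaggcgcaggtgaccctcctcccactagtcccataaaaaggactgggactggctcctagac
Hamp2, chr7:30924182-30924431: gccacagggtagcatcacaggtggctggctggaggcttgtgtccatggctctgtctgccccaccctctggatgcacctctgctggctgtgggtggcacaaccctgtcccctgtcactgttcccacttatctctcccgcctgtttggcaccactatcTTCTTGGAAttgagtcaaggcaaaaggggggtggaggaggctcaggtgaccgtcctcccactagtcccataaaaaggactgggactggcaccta
The Hamp2 window lies inside the span of that gene in GENCODE M21 (chr7:30922372-30924681), so its distances hold for the RefSeq start only. The windows were 91.9% identical over 247 aligned bases. GGCGCC began 109 bases before the Hamp start, and the aligned letters of Hamp2 carried the substitution G4A, counted from 1 at the first base of the element with the base of Hamp given first. The STAT core stood in both windows, 97 bases before the start in Hamp and 94 in Hamp2. GGCGCC occurred in 9.59% and TTCNNNGAA in 7.02% of all 32851 RefSeq windows of this length. RefSeq windows were at hand for 6 of the 10 genes, and GGCGCC was also found upstream of Tfrc. The entries of Bmp2, Id1, Hjv and Slc40a1 are not used here.

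A further set are the iron-responsive elements, the hairpins that bind iron regulatory proteins when iron is low. They block translation from a 5′ untranslated region and stabilise the transcript from a 3′ one, so the Tfrc transcript level is itself an iron readout. A search of GENCODE M21 transcripts (GRCm38) for an unpaired C, a 5-base stem and the loop CAGTGN, with GT pairs allowed and a G refused at the last loop base, found the elements below, with the loop in capitals.
Slc40a1, 5′ untranslated region, minus strand, chr1:45925466-45925492: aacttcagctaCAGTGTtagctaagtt
Tfrc, 3′ untranslated region, plus strand, chr16:32631220-32631246: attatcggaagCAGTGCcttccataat
Tfrc, 3′ untranslated region, plus strand, chr16:32631599-32631625: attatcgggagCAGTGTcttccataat
Tfrc, 3′ untranslated region, plus strand, chr16:32631664-32631690: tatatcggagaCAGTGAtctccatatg
Tfrc, 3′ untranslated region, plus strand, chr16:32631711-32631737: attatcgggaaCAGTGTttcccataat
Of 21877 gene symbols with a coding transcript, 0.0731% held a match in the 5′ and 0.379% in the 3′ untranslated region of the transcript searched. A match is a description of letters and was not tested for protein binding.

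Library totals ran from 16704663 to 21025466 estimated counts, and whole liver was sequenced although the labels also name sinusoidal endothelial cells: Alb took 9.60% to 10.9% of counts in knockout and 6.91% to 9.61% in control libraries. Sting1 had 80 to 114 counts in knockout and 226 to 365 in control livers. Control replicate 2 stood apart, with the lowest Alb share, a mean correlation of 0.953 with the other libraries against 0.966 to 0.974 elsewhere, and a TMM scaling factor of 1.26 against 0.922 to 1.01. Levels are given as TPM, the length-corrected share of transcripts. Fold changes come from edgeR's quasi-likelihood test on the estimated counts with TMM scaling. Scaling by total counts in place of TMM moved the median log2 fold change of all genes by -0.22, so a direction near 0 depends on the scaling. In bulk liver, fewer cells of a type and less RNA per cell cannot be told apart.

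All 10 genes passed the filter on low counts, and none passed the genome-wide test. With edgeR's test and Benjamini-Hochberg adjustment over 13197 genes, 0 of the 10 had an adjusted p under 0.05, where 0% of all genes did. DESeq2 called 0.969% of genes and none of the members. The targeted gene Sting1 was not called by edgeR's test either (log2 fold change -1.29, standard error 0.23, adjusted p = 0.357). No gene had a smaller adjusted p in that test. DESeq2 did call Sting1 (adjusted p = 0.00187). The adjusted p of the members ran from 0.393 to 0.995. At an unadjusted p under 0.05 there was 1 member, Tfr2, against 10.8% of all genes. Members above 0 numbered 7 and members below 0 numbered 3, and their median log2 fold change was 0.20 beside 0.01 over all genes tested. With total counts 4 were above and 6 below 0, with a median of -0.02 beside -0.21 over all genes. Scaled counts did not overlap between the groups for 2 members, Bmp6 and Tfr2, against 16.4% of all genes, and the same 2 did not overlap in TPM, against 20% of all genes. With 3 livers a group, the smallest p of an exact permutation test is 0.1.

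**Figure D1:**
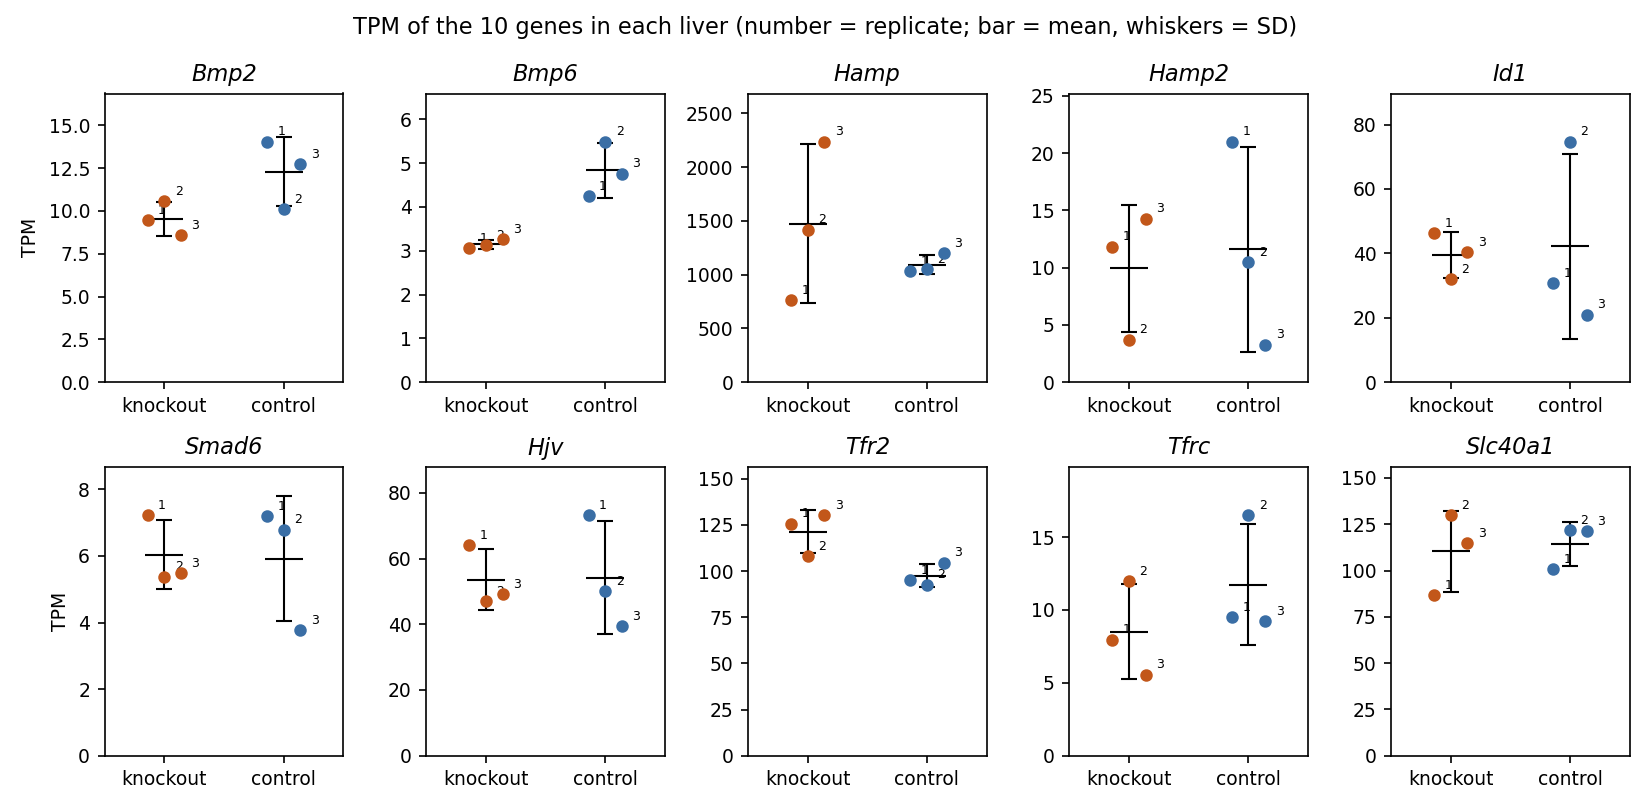
TPM of each of the 10 genes (vertical axis, from 0) in knockout and control livers, with each point 1 liver, its replicate number beside it, the bar the mean and the whiskers the SD (n = 3 a group). Bmp6 lay between 3.06 and 3.26 TPM in knockout livers, below all control livers, and Tfr2 lay above all control livers, while the other 8 genes overlapped.

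By length-corrected level, Hamp was far above the other members, at a mean of 1284 TPM over the 6 livers. Slc40a1 and Tfr2 followed at 113 and 109 TPM, Hjv at 53.9 and Id1 at 40.9 TPM. Bmp2, Hamp2 and Tfrc stood at 10.9, 10.8 and 10.1 TPM, and Smad6 and Bmp6 at 5.98 and 3.99 TPM. Hamp, whose lowest liver held 764 TPM, was separated from every other member in every liver, and Id1 overlapped neither Tfr2 nor Bmp2. The ranges overlapped between Slc40a1 and Tfr2, between Hjv and Id1, among Bmp2, Hamp2 and Tfrc, and between Smad6 and each of Tfrc and Bmp6, and the wide range of Hamp2 reached those of Id1, Smad6 and Bmp6, so the order within those sets is not resolved.

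Bmp6 (GRCm38 chr13:38345107-38500302) encodes the endothelial ligand whose loss lowers hepcidin and loads the liver with iron in mice. It stood at 3.06, 3.12 and 3.26 TPM in knockout replicates 1 to 3, against 4.25, 5.49 and 4.76 TPM in control replicates 1 to 3. Every knockout liver was below every control liver, and the knockout livers lay closer together than the control livers did. The means were 3.15 ± 0.10 TPM in knockout and 4.83 ± 0.62 TPM in control livers (SD, n = 3 each). This gave a log2 fold change of -0.37 (standard error 0.17, adjusted p = 0.477 in edgeR's test). The estimate lay between -0.41 and -0.28 when each library was left out in turn and was -0.58 with total counts. Groups did not overlap with knockout below control for 9.14% of genes in scaled counts and for 18.6% in TPM. The depth was 115 to 127 counts in knockout and 164 to 199 in control livers. On the opposite strand the gene overlaps 4930579J19Rik over 7657 bases, which the table does not list, and Txndc5 over 224 bases, whose TPM was 89.1 to 133 in knockout and 91.4 to 156 in control livers. No source used here says whether counting used the strand.

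Bmp2 (chr2:133552159-133562885), the other endothelial ligand required for hepcidin expression in mice, overlapped between the groups. It stood at 9.48, 10.6 and 8.59 TPM in knockout livers, against 14.05, 10.1 and 12.7 TPM in control livers. Control replicates 1 and 3 were above all knockout livers, and in TPM control replicate 2 lay among them. In TMM-scaled counts control replicate 2 was below all knockout livers, at 14.8 CPM beside 18.2 CPM in knockout replicate 3. Its log2 fold change was -0.16 (standard error 0.23, adjusted p = 0.811 in edgeR's test). Leaving out control replicate 2 gave -0.38, leaving out control replicate 1 gave 0.01 and leaving out control replicate 3 gave -0.05.

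Counts of each ligand were also set against the summed counts of 12 sinusoidal endothelial markers in the same library, a ratio that no scaling touches. Bmp6 had 9.15, 9.50 and 10.3 counts per 1000 marker counts in knockout livers, against 15.1, 15.3 and 15.3 in control livers. The 95% Wilson intervals reached at most 12.3 in knockout and began at 13.0 in control livers. The difference of the log2 ratio was -0.66, with an SD of 0.09 in knockout and 0.01 in control livers, and the exact permutation test gave p = 0.1 (two-sided, the smallest it can give). The control livers lay closer together than their own counting error, since each interval spanned over 4 counts per 1000. On the same ratio the groups did not overlap for 30.4% of all genes, with the knockout side lower for 29.7%. The median difference over all genes was -0.28, and 16.4% of genes lay at or below Bmp6. Against 12 pan-endothelial markers the difference for Bmp6 was -0.58. The summed sinusoidal markers, as CPM (counts scaled to a common library total), ran from 627 to 664 in knockout and from 555 to 666 in control livers, and 11 of them had a median log2 fold change of 0.39 in the scaled fit. Intervals cover counting error only.

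Bmp2 had 28.0, 31.9 and 26.9 counts per 1000 marker counts in knockout livers, against 49.6, 27.9 and 40.3 in control livers. Control replicate 2 again lay among the knockout livers. The log2 difference was -0.40 (exact permutation p = 0.3, two-sided), and -0.63 without control replicate 2.

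**Figure D2:**
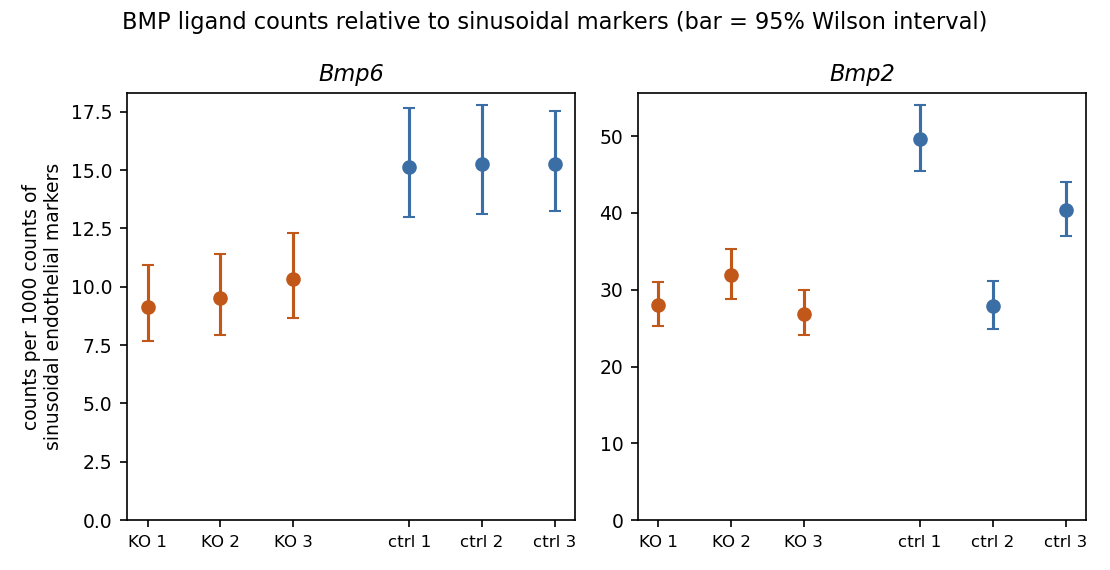
Counts of Bmp6 (left) and Bmp2 (right) per 1000 counts of 12 sinusoidal endothelial markers in each liver (vertical axes from 0), with knockout livers (KO) left of control livers (ctrl) and bars for the 95% Wilson interval of each library. Bmp6 lies between 9.15 and 10.3 in knockout livers and between 15.1 and 15.3 in control livers, while Bmp2 of control replicate 2, at 27.9, lies among the knockout livers.

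Hamp (chr7:30942368-30944032), the hepcidin gene and the main output of the pathway, varied more among knockout livers than between the groups. It held 764, 1419 and 2238 TPM in knockout livers, against 1034, 1049 and 1198 TPM in control livers. In TPM knockout replicate 1 was the lowest of the 6 livers and knockout replicate 3 the highest, so the knockout livers enclosed the control range. In TMM-scaled counts control replicate 2 was the lowest, at 177 CPM beside 188 CPM in knockout replicate 1. The means were 1473 ± 739 TPM in knockout and 1094 ± 90.8 TPM in control livers (SD, n = 3 each). In edgeR's test the log2 fold change was 0.65 (standard error 0.36, adjusted p = 0.548). Single libraries carried much of that estimate, which was 0.22 without knockout replicate 3 and 0.96 without knockout replicate 1. Summed hepatocyte markers ran from 124832 to 139894 CPM in knockout and from 95105 to 127000 in control livers, and their part in the Hamp values was not tested.

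Hamp2 (chr7:30922372-30924681), the mouse paralog without the GGCGCC letters in the window shown above, was a small share of hepcidin counts in every liver. It had 56, 16 and 65 counts in knockout livers, against 95, 38 and 16 counts in control livers. Its share of the summed counts was 1.56%, 0.267% and 0.649% in knockout and 2.04%, 1.01% and 0.279% in control livers. Neither group stood above the other (difference -0.29 percentage points, exact permutation p = 0.6, two-sided), and the difference was 0.18 without control replicate 1. Hamp2 counts did not order the livers as Hamp counts did. Knockout replicate 1, lowest in Hamp at 3529 counts, had 56 Hamp2 counts, above the 16 of knockout replicate 2 and of control replicate 3. Knockout replicate 3, highest in Hamp at 9949 counts, had 65 Hamp2 counts, below only the 95 of control replicate 1. The relation of the paralogs across livers was not tested. The transcripts were 84.4% identical over 391 aligned bases, and reads in the identical stretches could have been divided between them. Summing both genes gave a log2 fold change of 0.65, as for Hamp alone (adjusted p = 0.548 in edgeR's test). Both genes also lie within the span of the unnamed gene Gm44662 on the opposite strand, which the table does not list.

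Id1 (chr2:152736251-152737410), an inhibitor of DNA binding that BMP-activated SMADs induce directly in liver cells, differed most within the control group. It stood at 46.2, 32.1 and 40.5 TPM in knockout livers, against 30.8, 74.7 and 20.9 TPM in control livers. In TPM control replicate 2 was far above every other liver, and the other control livers were below all knockout livers. In TMM-scaled counts control replicate 2 was the highest by less, at 28.9 CPM beside 26.2 CPM in knockout replicate 1. Id1 had a log2 fold change of 0.26 (standard error 0.33, adjusted p = 0.787 in edgeR's test). It was 0.74 without control replicate 2 and 0.00 without control replicate 3, and -0.02 with total counts.

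Smad6 (chr9:63953076-64022059), an inhibitory SMAD that BMP signalling induces as feedback, stood at 7.23, 5.38 and 5.49 TPM in knockout livers, against 7.20, 6.79 and 3.76 TPM in control livers. The groups overlapped, and control replicate 3 was the lowest liver, as it was for Id1. For Smad6 the log2 fold change was 0.29 (standard error 0.25, adjusted p = 0.687 in edgeR's test), and 0.07 with total counts. It was 0.11 without control replicate 3 and 0.56 without control replicate 1.

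**Figure D3:**
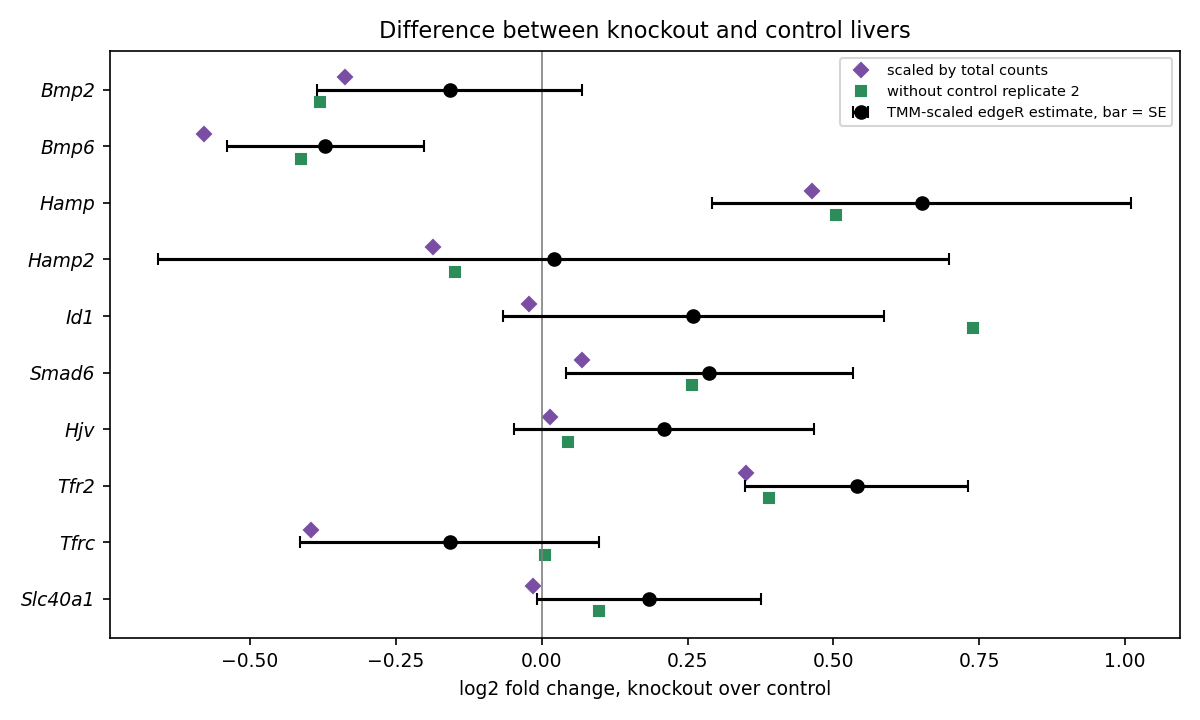
Log2 fold change, knockout over control (horizontal axis), for the 10 genes, with black points for the TMM-scaled edgeR estimate and bars for its standard error, diamonds for scaling by total counts and squares for the fit without control replicate 2. Bmp2 and Bmp6 stay below 0 in all 3 fits, and Hamp, Smad6, Hjv and Tfr2 stay above 0, with Hjv at 0.01 under total counts. Hamp2, Id1, Tfrc and Slc40a1 lie on both sides of 0.

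Tfr2 (chr5:137569840-137587481), the hepatocyte sensor of iron-loaded transferrin, was the member with the smallest unadjusted p. It stood at 126, 108 and 130 TPM in knockout livers, against 95.2, 92.7 and 105 TPM in control livers. Every knockout liver was above every control liver, although knockout replicate 2 exceeded control replicate 3 by little. The means were 121 ± 11.7 TPM in knockout and 97.5 ± 6.28 TPM in control livers (SD, n = 3 each). The test gave a log2 fold change of 0.54 (standard error 0.19, unadjusted p = 0.0207, adjusted p = 0.393 in edgeR's test). It was 0.35 with total counts and 0.39 to 0.69 over the fits that left out 1 library. Groups did not overlap with knockout above control for 7.25% of genes in scaled counts and for 1.38% in TPM. Of 12 hepatocyte markers, 10 were above 0 with a median log2 fold change of 0.41, and their part in the Tfr2 values was not tested.

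Hjv (chr3:96525172-96529210), the BMP coreceptor hemojuvelin, stood at 64.1, 47.1 and 49.3 TPM in knockout livers, against 73.2, 50.04 and 39.4 TPM in control livers. Replicate 1 was the highest in each group, and the groups overlapped. Hjv had a log2 fold change of 0.21 (standard error 0.26, adjusted p = 0.781 in edgeR's test). It was 0.58 without control replicate 1, 0.04 when control replicate 2 was left out and 0.01 with total counts.

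Tfrc (chr16:32608920-32632794), the transferrin receptor through which dividing and erythroid cells take up iron, stood at 7.97, 12.0 and 5.56 TPM in knockout livers, against 9.50, 16.5 and 9.22 TPM in control livers. Knockout replicates 1 and 3 were below all control livers, and knockout replicate 2 lay above control replicates 1 and 3. Tfrc had a log2 fold change of -0.16 (standard error 0.26, adjusted p = 0.833 in edgeR's test). Leaving out knockout replicate 3 gave 0.07, leaving out control replicate 2 gave 0.00 and leaving out knockout replicate 2 gave -0.46, and total counts gave -0.40. The 8 proliferation markers summed to 36.0 to 56.1 CPM in knockout and 62.4 to 185 in control livers, and replicate 2 was the highest of its group for the markers as for Tfrc. DESeq2 called 4 of these markers, all lower, where it called 0.969% of all genes, and did not call Tfrc. The 8 erythroid markers, of which 1 was at 0 in every library, summed to 76.7 to 128 in knockout and 88.0 to 248 in control livers. The part of either cell population in the Tfrc values was not tested.

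Slc40a1 (chr1:45908068-45926523), which encodes ferroportin and is strongly expressed by Kupffer cells that recycle red cell iron, stood at 86.8, 130 and 115 TPM in knockout livers, against 101, 122 and 121 TPM in control livers. The groups overlapped, with the lowest and the highest liver in TPM both in the knockout group. In TMM-scaled counts control replicate 2 was the lowest, at 166 CPM beside 175 CPM in knockout replicate 1. For Slc40a1 the log2 fold change was 0.18 (standard error 0.19, adjusted p = 0.739 in edgeR's test), and -0.02 with total counts. It was 0.06 when knockout replicate 2, 0.33 when control replicate 3 and 0.10 when control replicate 2 was left out. The 12 markers of Kupffer cells had a median log2 fold change of 0.52, with each above 0, and their sum ran from 1214 to 1578 CPM in knockout and from 923 to 1504 in control livers. Knockout replicate 1 had the highest marker sum and the lowest Slc40a1 TPM, and the part of these cells in the Slc40a1 values was not tested.

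Whether target levels follow ligand levels from liver to liver was examined for 8 pairs, Bmp2 and Bmp6 each with Hamp, Id1, Smad6 and Smad7, on log2 CPM over 6 livers. No pair had a positive r with an adjusted p under 0.05. Bmp6 and Hamp had a Pearson r of -0.23 (exact permutation p = 0.656, adjusted p = 0.874) and a Spearman rho of -0.03 (exact permutation p = 1). Without the 2 livers farthest from the median of Bmp6 the r was -0.77 over 4 livers, and with group means removed it was 0.57. Bmp6 and Id1 had an r of -0.63 and a rho of -0.60 (exact permutation p = 0.196 and 0.242, adjusted p = 0.392 and 0.483), and an r of 0.12 over 4 livers. With Smad6 the r was -0.69 and the rho -0.60 (exact permutation p = 0.124 and 0.242, adjusted p = 0.330 and 0.483). With Smad7 they were -0.31 and -0.49 (exact permutation p = 0.563 and 0.356, adjusted p = 0.874 and 0.569). The r with Smad6 and Smad7 over 4 livers was 0.21 for each. With group means removed the r of Bmp6 was -0.73 with Id1, -0.69 with Smad6 and -0.65 with Smad7. In log2(TPM + 1) these were 0.68, -0.08 and 0.91, so they depended on the scaling.

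Bmp2 ran opposite to Smad7, the feedback inhibitor of SMAD signalling, under TMM scaling. Smad7 held 6.43, 5.998 and 8.07 TPM in knockout livers, against 5.75, 10.95 and 6.17 TPM in control livers, with control replicate 2 the highest. The r was -0.94 (exact permutation p = 0.00556, adjusted p = 0.0444) and the rho -0.94 (exact permutation p = 0.0167, adjusted p = 0.133). The r was -0.93 over 4 livers without control replicates 1 and 2, and -0.96 with group means removed. It was -0.39 with total counts and -0.52 in log2(TPM + 1) (adjusted p = 0.844 for each, exact permutation), so the call over the 6 livers depended on the scaling, which both genes share. With group means removed, r was -0.84 with total counts and -0.96 in log2(TPM + 1). Bmp2 and Id1 had an r of -0.86 and a rho of -0.89 (exact permutation p = 0.0319 and 0.0333, adjusted p = 0.128 and 0.133). Over 4 livers the r was -0.89. For Bmp2 with Hamp and with Smad6 the r was 0.08 and 0.01 and the rho 0.20 and 0.09 (exact permutation p = 0.865 and 0.981 for r, 0.714 and 0.919 for rho). Adjusted, these were 0.981 for both r and 0.952 and 1 for rho, and over 4 livers the r was -0.41 and -0.75.

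**Figure D4:**
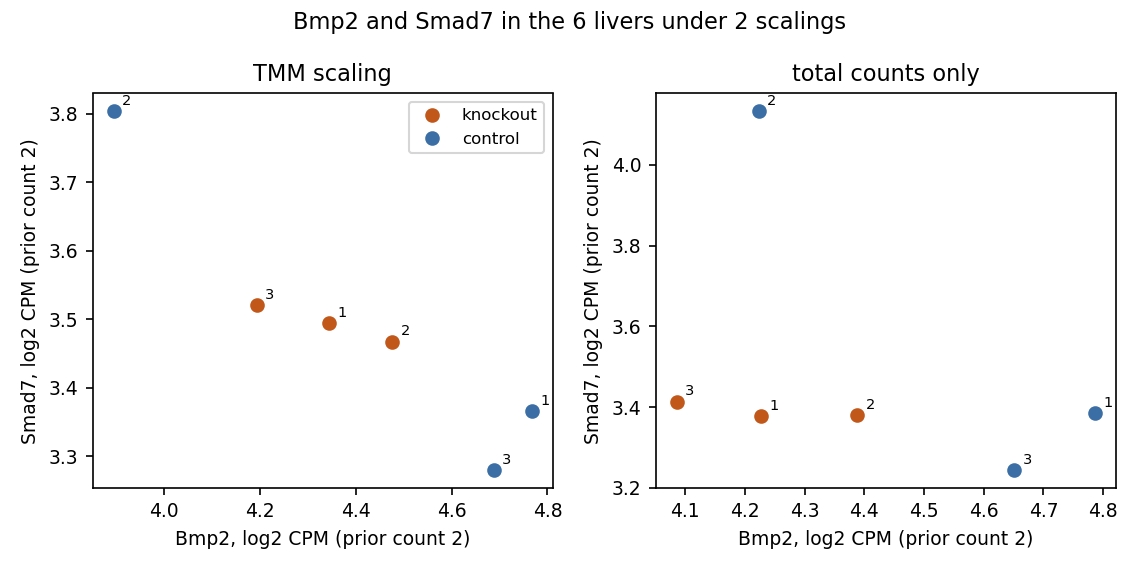
Smad7 against Bmp2 in the 6 livers, both as log2 CPM with a prior count of 2, under TMM scaling (left) and total counts only (right), with each point 1 liver and its replicate number. The points fall along a descending line under TMM scaling (r = -0.94), with control replicate 2 at the upper left, and they scatter more widely with total counts (r = -0.39 over 6 livers, and -0.84 with group means removed).

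Around these members, 7 lists of BMP and iron genes were counted, and in edgeR's test none of their members had an adjusted p under 0.05 in either direction, where 0% of all genes did. DESeq2 called 1 of them, Saa2, where it called 0.969% of all genes. Of 19 BMP ligands and antagonists 14 were tested, 8 above and 6 below 0 (median 0.03). The follistatin family members Fstl1, at 11.8 ± 0.54 TPM in knockout and 27.3 ± 16.8 TPM in control livers, and Fst, an activin and BMP antagonist at 3.75 ± 0.97 and 10.5 ± 7.34 TPM, had log2 fold changes of -0.88 and -1.22. Both control means rested on 1 liver, replicate 2 at 46.2 TPM for Fstl1 and replicate 1 at 18.8 TPM for Fst. Without that liver the fold changes were -0.48 and -0.33. All 7 tested cholangiocyte markers were below 0 (median -1.51), with the list summing to 228 to 512 CPM in knockout and 504 to 1577 CPM in control livers. Of 10 stellate cell markers 7 were below 0 (median -0.22), summing to 806 to 1075 CPM in knockout and 1016 to 1391 CPM in control livers. The part of either cell type in the Fstl1 and Fst values was not tested. Twsg1, a secreted BMP modulator, stood at 22.5 ± 1.37 TPM in knockout and 33.7 ± 8.45 TPM in control livers (-0.31). Fgl1, a hepatocyte protein that opposes BMP signalling to hepcidin, stood at 444 ± 97.3 TPM in knockout and 364 ± 51.5 TPM in control livers (0.54).

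Of 14 BMP receptors and coreceptors 13 were tested, 6 above and 7 below 0 (median -0.13). The type 2 receptor Acvr2a stood at 4.73 ± 0.23 TPM in knockout and 7.77 ± 1.148 TPM in control livers, with every knockout liver below every control liver (log2 fold change -0.47, standard error 0.15, adjusted p = 0.381 in edgeR's test). The type 1 receptor Bmpr1a stood at 12.9 ± 1.12 and 20.4 ± 4.34 TPM in knockout and control livers (-0.38, and -0.24 without control replicate 1), with the groups apart as well. Bmpr2 had a log2 fold change of -0.32 and Bambi, a decoy receptor, one of -0.66, which was -0.40 without control replicate 1. Bambi overlapped between the groups in TPM. In the scaled counts of this list, 1 gene was higher and 2 were lower in all knockout libraries, beside 7.25% and 9.14% of all genes.

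All 11 listed SMADs and further BMP targets were tested, 3 above and 8 below 0 (median -0.11). The targets did not share a direction. Id2 stood at 225 ± 22.2 TPM in knockout and 189 ± 49.9 TPM in control livers (0.52), and Id3 at 69.9 ± 7.01 and 56.4 ± 26.9 TPM (0.62), both inhibitors of DNA binding like Id1. Their TPM overlapped between the groups, with control replicate 2 the highest control liver for each. In scaled counts both were higher in all knockout libraries. Without overlap in scaled counts, 2 genes of this list were higher and 2 lower, beside 7.25% and 9.14% of all genes. Atoh8, a SMAD-induced transcription factor of hepatocytes, stood at 18.9 ± 3.05 TPM in knockout and 27.8 ± 3.88 TPM in control livers (-0.31), and every knockout liver was below every control liver in TPM, as for 18.6% of all genes. In scaled counts the groups overlapped for Atoh8. The common mediator Smad4 had a log2 fold change of -0.22, and of -0.12 without control replicate 2.

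**Figure D5:**
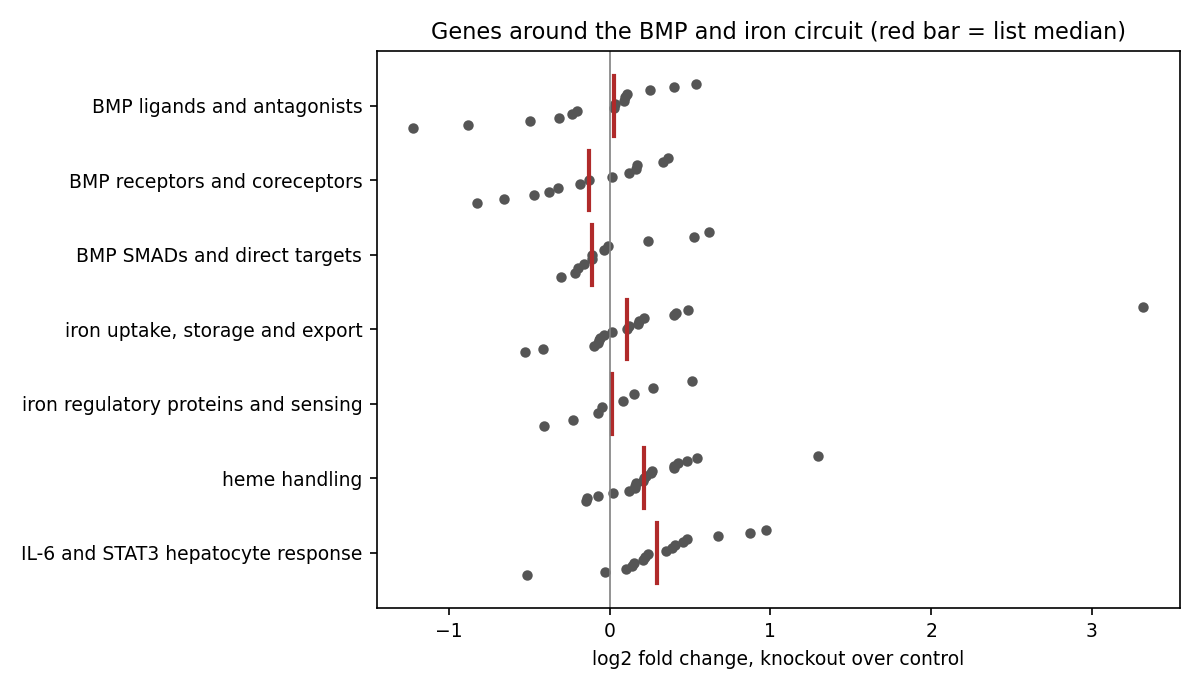
Log2 fold change, knockout over control (horizontal axis), of each tested gene in the 7 lists, with 1 point a gene and a red bar for the list median. The medians lie between -0.13 for receptors and 0.29 for the IL-6 and STAT3 response, and the far right point is Ltf at 3.32, which rests on knockout replicate 1.

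Iron genes outside the members varied in both directions. Of 18 genes of iron uptake, storage and export 17 were tested, 10 above and 7 below 0 (median 0.11). Slc39a14, the hepatocyte importer of iron not bound to transferrin, stood at 80.5, 84.7 and 127 TPM in knockout livers, against 59.2, 110 and 76.4 TPM in control livers (log2 fold change 0.49, and 0.24 without knockout replicate 3). The metalloreductase gene Steap2 had a log2 fold change of -0.52, and of -0.34 without control replicate 2. The iron-chelating proteins of neutrophils and inflamed tissue, Lcn2 and Ltf, had fold changes of 0.40 and 3.32. Ltf stood at 18.2 TPM in knockout replicate 1 and at 0.42 to 1.11 TPM in the other livers, and its fold change was -0.21 without that library.

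Of 8 genes of iron regulatory proteins and oxygen sensing, 4 were above and 4 below 0 (median 0.02). Ireb2, the iron regulatory protein that binds the hairpins shown above, stood at 15.9 ± 1.32 TPM in knockout and 25.6 ± 3.33 TPM in control livers, with every knockout liver lower (-0.41, standard error 0.15, adjusted p = 0.405 in edgeR's test). Aco1, the other hairpin-binding protein, stood at 90.7 ± 14.7 and 88.4 ± 4.98 TPM in knockout and control livers (0.27, and 0.15 without knockout replicate 3). Epas1, the hypoxia-inducible factor that governs iron uptake genes, stood at 52.7 ± 5.41 and 43.7 ± 3.83 TPM (0.51), and Hif1a had a log2 fold change of -0.23, which was -0.14 without knockout replicate 3. Epas1 was above every control liver in all knockout livers, by little in TPM, at 46.8 against 46.4 TPM for the nearest pair. In scaled counts 1 gene of this list was higher and 1 lower without overlap, beside 7.25% and 9.14% of all genes. In TPM the shares of all genes were 1.38% higher and 18.6% lower.

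Of 19 heme genes, all tested, 16 were above and 3 below 0 (median 0.21). The heme synthesis enzyme Alad and the transporter Slc46a1 had log2 fold changes of 0.48 and 0.40, and Blvra, which reduces biliverdin, one of 0.26. Cd163, the macrophage receptor for haemoglobin and haptoglobin, stood at 1.12 ± 0.34 TPM in knockout and 0.50 ± 0.35 TPM in control livers (log2 fold change 1.296, standard error 0.56). Without control replicate 3 its fold change was 2.13, and without control replicate 2 it was 0.90. Cd163 had only 33 to 66 counts in knockout and 9 to 46 in control livers. With total counts the median of this list was 0.01, beside -0.21 over all genes.

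The IL-6 and STAT3 response list had 16 of 17 genes tested, 14 above and 2 below 0 (median 0.29, and 0.01 over all genes). The 12 hepatocyte markers had a larger median, 0.41, with 10 above 0, and their part in the values of this list was not tested. Saa2, an acute-phase apolipoprotein, stood at 241, 175 and 238 TPM in knockout livers, against 141, 100 and 143 TPM in control livers, with no overlap (log2 fold change 0.97, standard error 0.26, adjusted p = 0.367 in edgeR's test). In DESeq2 its adjusted p was 0.0372. Its near-identical neighbour Saa1 stood at 267 ± 31.2 TPM in knockout and 167 ± 36.2 TPM in control livers (0.87), and reads may have been divided between them. Orm2 and the STAT3 feedback gene Socs3 had log2 fold changes of 0.67 and 0.46. In scaled counts 6 genes of this list were higher and 1 was lower in all knockout libraries, beside 7.25% and 9.14% of all genes. Of the 12 hepatocyte markers, 3 were higher and 1 was lower in all knockout libraries. Hamp itself overlapped between the groups, as given above.

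The genes whose profile was most like each of 3 members were found by Pearson r of log2 CPM over the 6 libraries, as a measure of likeness. For Bmp6 they were Klrb1b, St8sia1, Pparg, Dusp1 and Xlr4b, with r of 0.97 to 0.98. Of these, Klrb1b, St8sia1 and Xlr4b were low, at means of 0.63, 0.08 and 0.84 TPM in knockout livers. In control livers their means were 1.41, 0.19 and 3.82 TPM. Pparg, a lipid-responsive nuclear receptor, stood at 14.8 TPM in knockout and 25.8 TPM in control livers on average, and Dusp1, a phosphatase of MAP kinases, at 27.9 and 46.1 TPM. For Hamp the nearest were Cdipt, Sqor, Glyctk, Mapk14 and Sil1, with r of 0.99 to 1.00. None of these moved as far as Hamp: their log2 fold changes ran from 0.09 to 0.34. For Id1 they were Praf2, Aplp1, Phf12, Sel1l3 and Rnf39, with r of 0.97 to 0.98. These r are descriptions, picked as the highest over 13197 genes from 6 libraries that share one scaling.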

How the data were processed

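Liver polyA RNA of 6 mice was sequenced in strand-specific libraries, per the labels. The submitters' processing notes name RSEM 1.3.3, HISAT2 2.2.1, fastp 0.23.2 and DESeq2 (release 1.38.3) with GRCm38 but no roles, and the authors deposited estimated counts and TPM per gene. No source used here names the annotation release. The deposited estimated counts are unscaled, 6.93% of them are not whole, and they were rounded. The deposited TPM were scaled per library by the authors. Library totals were 16704663 to 21025466 counts, and no libraries of a group were repeats of each other. Counts were tested with edgeR 4.0.16 (TMM, filterByExpr, robust quasi-likelihood fit, Benjamini-Hochberg threshold 0.05) in R 4.3.3. Standard errors are the absolute fold change over the root of F. Alternatives were other scalings and filters, DESeq2 1.42.0, limma 3.58.1 with voom or on log2(TPM + 1) and log2(TPM + 0.1), a replicate block and each library left out. The members and lists were chosen with earlier results of these data known. Named genes are the 10 members, Sting1, up to 4 of smallest p in each list, and the 5 nearest in profile to Bmp6, Hamp and Id1; Smad7 and Txndc5 belong to a tested pair and an overlap. Positions came from GENCODE M21, which held 21852 of the 21956 identifiers.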

Additional observations from a re-analysis of the deposited data

How the results depend on the processing

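The number of genes passing the genome-wide test was 0 in edgeR with TMM, RLE, upper quartile and total-count scaling, with both other filters, in limma-voom and in both TPM fits. It was 127 in DESeq2, 5 with a replicate block, and 0 to 2 over the fits that left out 1 library. No member passed under any of these. Of the pathway genes, DESeq2 called Saa2 alone, where it called 0.969% of all genes. The median of the members was -0.02 with total counts and -0.03 in both TPM fits, where 4 and 5 of the 10 were above 0. The replicate numbers were not shown to pair the animals: deviations of same-numbered libraries correlated at 0.11, -0.01 and 0.13. Hepcidin genes summed ran from 0.21 to 0.96 over the fits that left out 1 library, with no call. Directions that turned were those of Hamp2 (-0.19 with total counts, -0.076 in log2(TPM + 1), -0.069 in log2(TPM + 0.1), and -0.40 to 0.95 with 1 library left out), Id1 (-0.022 with total counts), Slc40a1 (-0.015 with total counts, -0.0648 and -0.0655 in the TPM fits), Bmp2 (-0.38 to 0.0074), Tfrc (-0.46 to 0.071) and Ltf (-0.21 to 4.43), the last 3 with 1 library left out. The Hamp2 share difference ran from -0.70 to 0.18 percentage points. Relations across livers depended on the scaling. In log2(TPM + 1) and with total counts the r was -0.35 and -0.28 for Bmp2 with Hamp, -0.16 and -0.19 for Bmp2 with Smad6, -0.52 and -0.39 for Bmp2 with Smad7, 0.15 and 0.0094 for Bmp6 with Id1, and 0.48 and 0.50 for Bmp6 with Smad7. The cause of these changes was not tested. Hamp2 had 16 to 95 counts a library and Bmp6 115 to 199, which limits both.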
